A study of Mus musculus with 7 samples.

Results

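T and cytotoxic lymphocyte genes were examined in B-cell precursor (BCP) cells of the Eμ-Ret mouse. The 10 genes, chosen by name, were Cd2, the CD3 chains Cd3d, Cd3e and Cd3g, and the cytotoxic effector genes Gzma, Gzmb, Prf1, Nkg7, Klrd1 and Ccl5. All 10 were found among the 24341 genes of the deposited table. They serve as a measure of T cell and natural killer (NK) cell RNA in a sorted B-lineage population. The samples were 4 preleukemic samples from young healthy mice and 3 leukemic samples from older moribund mice with overt disease. Both groups were hemizygous for Emu-Ret, a Ret fusion transgene driven by the immunoglobulin heavy chain (IgH) enhancer, on a BALB/c background, so that preleukemic cells carry the oncogene too. No transgene-negative sample was compared. BCP cells were sorted by flow cytometry from the spleen, and in this model they are defined by an intermediate level of B220 and CD43 and a high level of BP-1. The paper's methods describe this sort for preleukemic cells. For its in vitro studies, most leukemic spleens, which were dominated by blasts, were used without enrichment. A difference in purity between the groups was not tested and cannot be told apart from the difference in disease stage. T and NK cells are not B220int/CD43int/BP-1hi, and their transcripts in a sorted sample are therefore of use as a check of the sort. In RNA from a whole sample, fewer cells of a type and less RNA per cell cannot be told apart.

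T cells recognise peptides through a T cell receptor whose chains cannot signal by themselves. The CD3γ, CD3δ and CD3ε chains, with CD247, carry the signal across the membrane and are made by T cells at nearly every stage. Cytotoxic T cells and NK cells kill by releasing granules in which perforin opens the way for granzymes. NK cells share this granule programme but do not carry a surface T cell receptor, so CD3 chains and granule genes together help to tell these cells apart.

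The 7 libraries were similar in depth, at 13.7 to 16.1 M fragments as implied by the steps between low values, and the FPKM (a level corrected for the length of the transcript and the depth of the library) of a sample summed to between 448022 and 539887. All 15 defining BCP markers, among them Cd79a, Igll1 and Pax5, were at 1 FPKM or more in every sample, and their summed level was 6632 to 8287 FPKM in preleukemic and 3593 to 5447 in leukemic samples. Preleukemic replicate 1 stood apart from the other preleukemic samples in erythroid markers (876 FPKM summed, against 57.1 to 70.3).

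Promoters are shown for the granule genes whose groups did not overlap (Gzmb and Nkg7), for the granzyme gene with the widest leukemic range (Gzma), and for the neighbours Cd3g and Cd3d. Each sequence runs 5′ to 3′ on the strand of its gene, from 250 bases before the start of transcription to 50 bases after it, and comes from RefSeq on GRCm38.p6, where windows were found for 7 of the 10 genes. Capitals mark matches, on either strand, to TGTGGT (the core bound by RUNX factors), TCACAC (the core bound by T-box factors such as T-bet and Eomes) and TGACGT (the core of the cAMP response element), which did not overlap each other in these windows.
Gzmb (chr14:56262285-56262584, minus strand): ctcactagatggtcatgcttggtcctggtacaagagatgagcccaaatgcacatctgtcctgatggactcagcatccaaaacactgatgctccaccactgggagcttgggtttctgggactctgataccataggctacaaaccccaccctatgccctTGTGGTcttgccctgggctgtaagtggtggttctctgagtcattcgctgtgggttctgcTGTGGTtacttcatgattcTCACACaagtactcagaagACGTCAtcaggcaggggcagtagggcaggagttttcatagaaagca
Nkg7 (chr7:43436888-43437187, plus strand): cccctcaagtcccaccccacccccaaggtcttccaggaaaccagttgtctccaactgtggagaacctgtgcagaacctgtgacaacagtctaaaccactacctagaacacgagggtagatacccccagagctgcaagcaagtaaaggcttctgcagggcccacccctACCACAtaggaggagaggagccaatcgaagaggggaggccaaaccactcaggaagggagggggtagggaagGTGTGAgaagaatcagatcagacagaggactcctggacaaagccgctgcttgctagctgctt
Gzma (chr13:113100932-113101231, minus strand): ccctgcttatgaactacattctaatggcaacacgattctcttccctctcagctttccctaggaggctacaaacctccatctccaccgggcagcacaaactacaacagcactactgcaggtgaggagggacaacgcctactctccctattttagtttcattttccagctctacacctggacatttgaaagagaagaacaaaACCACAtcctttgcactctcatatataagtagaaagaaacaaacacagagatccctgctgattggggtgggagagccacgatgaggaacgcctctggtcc
Cd3g (chr9:44980382-44980681, minus strand): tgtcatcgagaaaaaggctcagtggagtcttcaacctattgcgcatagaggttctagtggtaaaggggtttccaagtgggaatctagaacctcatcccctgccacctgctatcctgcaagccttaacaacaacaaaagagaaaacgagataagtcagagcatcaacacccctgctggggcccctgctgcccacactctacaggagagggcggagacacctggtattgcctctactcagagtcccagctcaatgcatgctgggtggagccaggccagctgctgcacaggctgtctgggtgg
Cd3d (chr9:44981536-44981835, plus strand): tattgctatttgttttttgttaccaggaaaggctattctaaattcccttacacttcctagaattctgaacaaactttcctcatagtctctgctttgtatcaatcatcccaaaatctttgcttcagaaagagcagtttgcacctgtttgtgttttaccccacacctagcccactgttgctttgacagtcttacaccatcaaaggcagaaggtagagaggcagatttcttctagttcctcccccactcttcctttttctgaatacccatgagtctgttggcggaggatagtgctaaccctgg
The Gzmb window held 2 RUNX cores, 1 T-box core and 1 cAMP response core, and the Nkg7 window held 1 RUNX core and 1 T-box core. The Gzma window held 1 RUNX core, and neither the Cd3g nor the Cd3d window held a match. Of the windows found but not printed, that of Cd3e held 1 cAMP response core. That of Prf1 held 1 RUNX core and 1 cAMP response core. Among the 7 windows found, 4 held a RUNX core, 2 a T-box core and 3 a cAMP response core. Of all 32851 promoter windows of this length, 16.8% held a RUNX core, 14.5% a T-box core and 7.51% a cAMP response core. A match describes the letters of the window and is not a measured binding site.

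The comparison of leukemic with preleukemic cells asks which genes change as preleukemia becomes leukemia, and for T and cytotoxic lymphocyte genes it asks how much lymphocyte RNA each sample held. The chemokine gene Ccl5 rose in the leukemic samples, and the granule genes Gzmb and Nkg7 were higher in all 3 leukemic samples than in any preleukemic sample. The CD3 chains were at 0.646 to 5.31 FPKM in all 7 samples, and their groups overlapped. Cd2 ranged from 2.68 to 59.9 FPKM among the leukemic samples alone. A limit of 10 on the FPKM total of a gene in the 7 samples left 8 of the 10 genes for testing. Of these 8, 1 (Ccl5) had an adjusted p under 0.05 (limma with Benjamini-Hochberg adjustment over all 10541 genes tested), where 14.7% of all genes tested did so in either direction, 8.47% were higher and 6.26% were lower. Among the 10 genes, 3 (Ccl5, Nkg7 and Gzmb) lay wholly higher in leukemic samples, against 14.9% of the 16676 genes above the floor of 0.01 FPKM, and 0 lay wholly lower, against 12.9%.

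**Figure D1:**
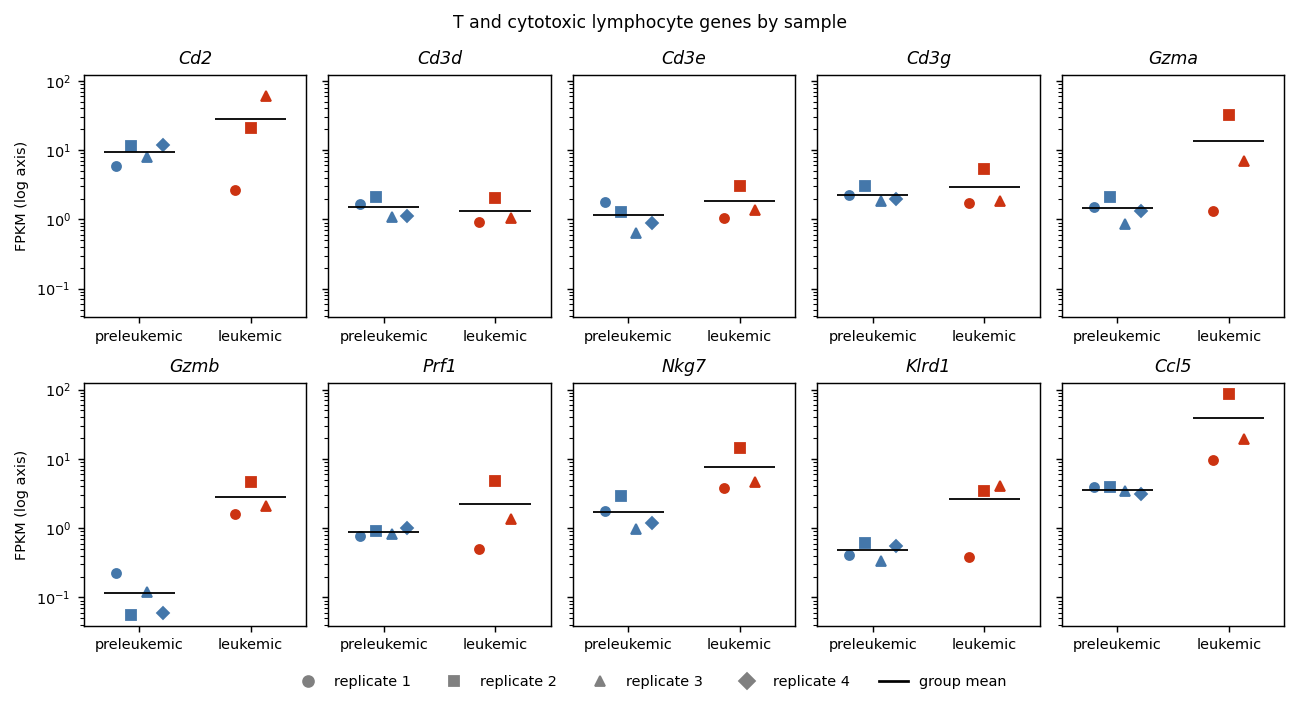
Level of each of the 10 genes in each sample, in FPKM on a log axis, with points for samples, shapes for replicate numbers and lines for group means. Ccl5, Nkg7 and Gzmb do not overlap between the groups, and leukemic replicate 2 holds the highest value of 7 of the 10 genes.

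The CD3 chains formed the most even group. Cd3g, the γ chain, had 2.22, 3.00, 1.86 and 1.97 FPKM in preleukemic replicates 1 to 4 and 1.73, 5.31 and 1.87 FPKM in leukemic replicates 1 to 3. Cd3d, the δ chain, had 1.68, 2.12, 1.09 and 1.11 FPKM in preleukemic and 0.919, 2.05 and 1.04 FPKM in leukemic samples. Cd3e, the ε chain needed for every CD3 pair, had 1.75, 1.28, 0.646 and 0.892 FPKM in preleukemic and 1.05, 3.07 and 1.35 FPKM in leukemic samples. Leukemic replicate 2 was the highest sample for Cd3g and Cd3e, while preleukemic replicate 2 was the highest for Cd3d, and every chain overlapped between the groups. The differences on the log2(FPKM + 1) scale, leukemic minus preleukemic, were 0.18 for Cd3g (standard error 0.32, limma adjusted p = 0.711), -0.11 for Cd3d (standard error 0.26, limma adjusted p = 0.790) and 0.36 for Cd3e (standard error 0.31, limma adjusted p = 0.438). None of them was larger than the spread between samples, and that of Cd3e was 0.062 without leukemic replicate 2 and 0.56 without leukemic replicate 1. The sign for Cd3g turned without leukemic replicate 2 (-0.21), and that for Cd3d turned without leukemic replicate 1 (0.016) or preleukemic replicate 2 (0.0044).

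The CD3 genes lie together on chromosome 9 (GRCm38), Cd3g at 44969572 to 44980431, Cd3d at 44981786 to 44987052 and Cd3e at 44998743 to 45009590, within 40019 bases. The starts of Cd3g and Cd3d are 1355 bases apart and the genes run in opposite directions. The 596 genes of chromosome 9 that were tested had a median log2 difference of 0.22, with 78 called higher and 7 lower, against a median of -0.02 over all genes tested. The part of this shift in the CD3 values was not tested. The summed level of the 3 chains was 3.60 to 6.40 FPKM in preleukemic samples and 3.70, 10.4 and 4.25 FPKM in leukemic replicates 1 to 3, which is 0.224% to 0.958% of the level of the B-lineage signaling chain Cd79a in the same sample.

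Cd2 encodes an adhesion receptor of T and NK cells that mouse B-lineage cells also carry, and its gene lies on chromosome 3 at 101275908 to 101287939. It had 5.81, 11.6, 7.88 and 11.7 FPKM in preleukemic replicates 1 to 4 and 2.68, 20.7 and 59.9 FPKM in leukemic replicates 1 to 3. Leukemic replicate 1 was the lowest of all 7 samples and leukemic replicate 3 the highest. The log2 difference was 0.77 (standard error 0.84, limma adjusted p = 0.539). It was 1.87 without leukemic replicate 1 (limma adjusted p = 0.0387, where 8.17% of the genes tested were called higher) and -0.15 without leukemic replicate 3 (limma adjusted p = 0.889). Cd2 did not follow the CD3 chains, since its level was 1.03 to 2.95 times their sum in preleukemic samples and 0.724, 1.98 and 14.1 times in leukemic replicates 1 to 3.

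The granzymes are the proteases of the cytotoxic granule. Gzmb, on chromosome 14 at 56258858 to 56262260, had 0.223, 0.0564, 0.119 and 0.0604 FPKM in preleukemic replicates 1 to 4 and 1.60, 4.66 and 2.08 FPKM in leukemic replicates 1 to 3. The preleukemic values amount to 4, 1, 2 and 1 fragments and the leukemic values to 30, 88 and 41 fragments. Every leukemic sample was thus above every preleukemic sample, and the latter were close to the lowest level that could be seen. Corrected for depth, the pooled leukemic fragments were 24.1 times the preleukemic ones (95% interval 12.0 to 56.9, which covers counting error only). The log2 difference was 1.68 on the log2(FPKM + 1) scale and 3.66 with a pseudocount of 0.1. With a summed FPKM of 8.80, Gzmb fell just below the limit of 10 and has no adjusted p there. Without that limit its limma adjusted p was 0.0198 (standard error 0.26), where 6.68% of 16676 genes were called higher. An exact permutation test over the 7 samples (two-sided) gave p = 0.0286, the smallest that 3 samples against 4 allow. That p follows largely from the lack of overlap and adds little to it.

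Gzma, on chromosome 13 at 113093827 to 113100981, had 1.50, 2.12, 0.865 and 1.30 FPKM in preleukemic replicates 1 to 4 and 1.33, 32.1 and 6.88 FPKM in leukemic replicates 1 to 3. Leukemic replicates 2 and 3 were above all preleukemic samples, while leukemic replicate 1 lay among them. The log2 difference of 1.82 did not pass (standard error 0.78, limma adjusted p = 0.150). It was 2.75 without leukemic replicate 1 (limma adjusted p = 0.0227) and 0.83 without leukemic replicate 2. The granzymes were not in a fixed ratio, as Gzma was 0.831, 6.89 and 3.31 times Gzmb in leukemic replicates 1 to 3.

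Prf1 encodes perforin, which forms pores in the membrane of the target cell, and lies on chromosome 10 at 61297836 to 61304263. It had 0.768, 0.925, 0.820 and 0.990 FPKM in preleukemic replicates 1 to 4 and 0.492, 4.87 and 1.37 FPKM in leukemic replicates 1 to 3. Here leukemic replicate 1 was the lowest of the 7 samples, and the other leukemic samples were above all preleukemic ones. The log2 difference was 0.55 (standard error 0.44, limma adjusted p = 0.399). It was 0.0043 without leukemic replicate 2 and 0.99 without leukemic replicate 1.

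Nkg7, a membrane protein of cytotoxic granules that takes part in their release, is encoded on chromosome 7 at 43437138 to 43438246. It had 1.77, 2.91, 0.959 and 1.20 FPKM in preleukemic replicates 1 to 4 and 3.78, 14.3 and 4.60 FPKM in leukemic replicates 1 to 3. The groups did not overlap, although leukemic replicate 1 was close to the highest preleukemic sample. The log2 difference of 1.51 narrowly missed the threshold (standard error 0.44, limma adjusted p = 0.0580). An exact permutation test, unadjusted and two-sided, gave p = 0.0286, which follows largely from the lack of overlap and adds little to it. The limma adjusted p was 0.0439 without leukemic replicate 1 but 0.0693 to 0.150 without any other sample. Without leukemic replicate 2 the difference was 0.99 (limma adjusted p = 0.0727).

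Klrd1 encodes CD94, a receptor that NK cells and some CD8 T cells use to survey MHC class I, and lies on chromosome 6 at 129591811 to 129598775. It had 0.406, 0.618, 0.330 and 0.554 FPKM in preleukemic replicates 1 to 4 and 0.387, 3.47 and 4.05 FPKM in leukemic replicates 1 to 3. These values rest on 3 to 6 fragments in preleukemic samples and on 4, 36 and 44 fragments in leukemic samples. Leukemic replicate 1 could not be parted from the preleukemic samples. Klrd1 was just below the limit on summed FPKM (9.82), with a log2 difference of 1.10. Without that limit its limma adjusted p was 0.158. The difference was 1.69 without leukemic replicate 1 and 0.76 without leukemic replicate 3. Unlike the granule genes Gzma, Gzmb, Prf1 and Nkg7, Klrd1 was higher in leukemic replicate 3 than in replicate 2. It stood at 2.97 times Prf1 in replicate 3 against 0.713 times in replicate 2. Just inside the limit were Cd3d (10.01), Cd3e (10.04) and Prf1 (10.23).

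Ccl5 encodes a chemokine that effector and memory T cells and NK cells make, and that macrophages can make too. The gene lies on chromosome 11 at 83525779 to 83530518. It had 3.87, 3.94, 3.39 and 3.14 FPKM in preleukemic replicates 1 to 4 and 9.77, 85.5 and 19.6 FPKM in leukemic replicates 1 to 3. Preleukemic samples were nearly equal, and each leukemic sample was above all of them. Ccl5 rose by a log2 difference of 2.55 (standard error 0.62, limma adjusted p = 0.0365), from 3.59 ± 0.385 FPKM (SD, n = 4) to 38.3 ± 41.2 (SD, n = 3). The rise was 1.70 without leukemic replicate 2 and still passed (limma adjusted p = 0.0142). It did not pass without leukemic replicate 3 (0.0595) or any preleukemic replicate (limma adjusted p 0.0741 to 0.107), nor without the limit on summed FPKM (limma adjusted p = 0.0577), though its size then stayed between 2.50 and 2.74.

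**Figure D2:**
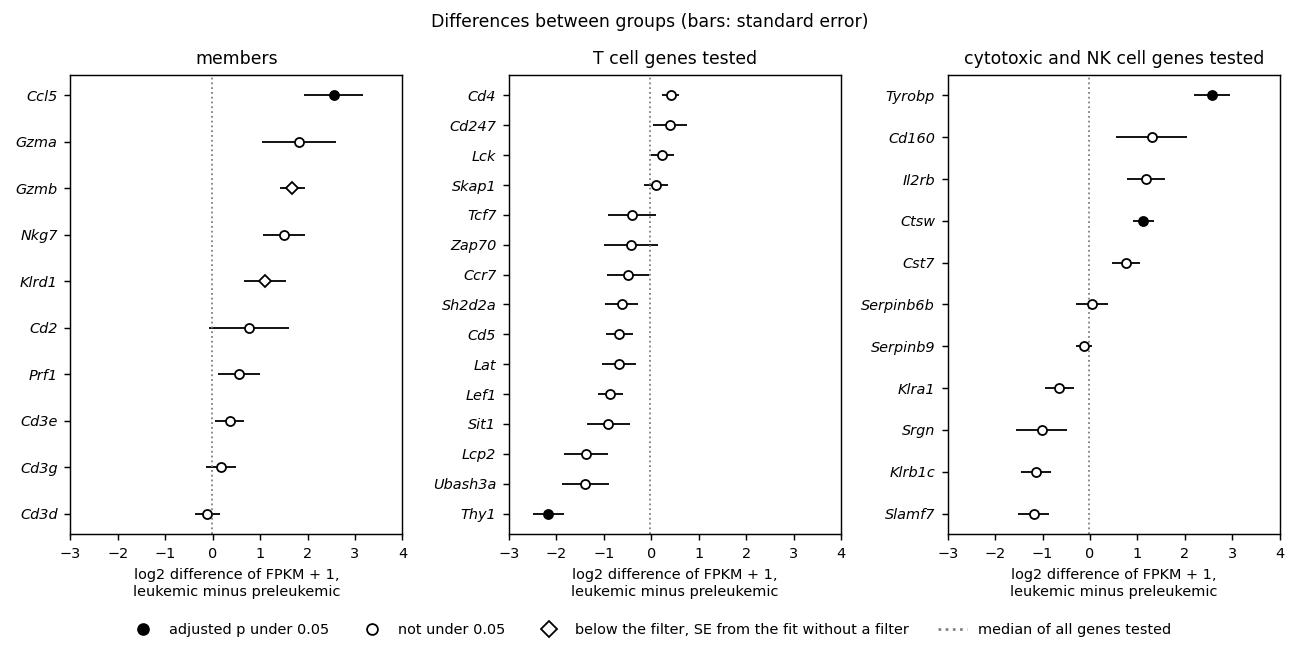
Difference between groups (leukemic minus preleukemic, log2 of FPKM + 1) with its standard error, for the 10 genes and for the tested genes of a T cell list and a cytotoxic and NK cell list. Filled points had a limma adjusted p under 0.05, which Ccl5, Thy1, Tyrobp and Ctsw reached, and the dotted line is the median of all genes tested (-0.02).

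The leukemic samples differed from each other. Leukemic replicate 2 was the highest sample for 7 of the 10 genes (Cd3e, Cd3g, Gzma, Gzmb, Prf1, Nkg7 and Ccl5), where it was the highest for 20.0% of all genes above the floor. Leukemic replicate 3 was the highest for Cd2 and Klrd1. Leukemic replicate 1 was the highest for none and the lowest for 4 (Cd2, Cd3d, Cd3g and Prf1). The coefficient of variation between samples was 46.6% (Cd3d) to 122% (Gzma) among leukemic and 10.7% (Ccl5) to 67.6% (Gzmb) among preleukemic samples. It was larger among leukemic samples for 9 of the 10 genes, with Gzmb as the exception (59.1% against 67.6%, the latter from 1 to 4 fragments per sample). The difference in spread was not tested, and the share of all genes with a larger leukemic spread was not computed. In the paper's principal component analysis, preleukemia samples were more alike than leukemia samples. A wider leukemic spread therefore need not be particular to these genes. For Ccl5, Prf1, Klrd1 and Gzmb the SD of fragments between preleukemic samples was 0.501, 0.549, 0.596 and 0.956 times what counting error alone gives. For the remaining genes it was 1.19 (Cd3g) to 3.50 (Cd2) times that error. Among leukemic samples it was 2.25 (Cd3d) to 21.4 (Cd2) times for the 10 genes. An SD from 4 or 3 samples is itself imprecise, and these ratios were not tested.

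**Figure D3:**
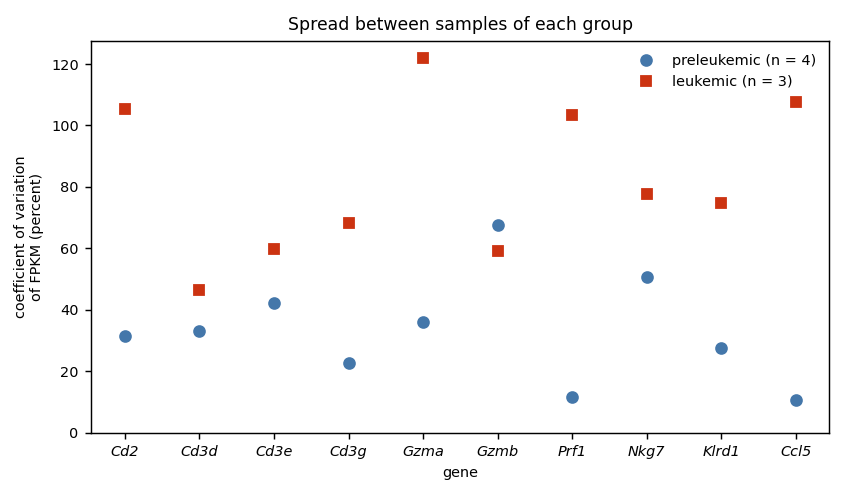
Coefficient of variation (percent) of the FPKM of each gene between samples, in preleukemic (circles, n = 4) and leukemic (squares, n = 3) samples. The leukemic value is the higher in 9 of the 10 genes, and for Gzmb it is 59.1% against 67.6%. The share over all genes was not computed.

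The 6 cytotoxic genes summed to 8.53, 10.6, 6.49 and 7.25 FPKM in preleukemic replicates 1 to 4 and to 17.4, 145 and 38.6 FPKM in leukemic replicates 1 to 3. This sum was 1.51 to 1.83 times that of the CD3 chains in preleukemic samples and 4.69, 13.9 and 9.08 times in leukemic replicates 1 to 3. Cytotoxic transcripts were therefore higher relative to CD3 transcripts in each leukemic sample than in any preleukemic sample. Ccl5 accounted for much of the sum, and without it, Nkg7 and Klrd1, the granule proteins Gzma, Gzmb and Prf1 summed to 1.80 to 3.11 FPKM in preleukemic samples and to 3.43, 41.6 and 10.3 FPKM in leukemic samples.

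Among markers of other cell types, the macrophage and erythroid sums had the same order of leukemic samples as this sum. That order was not particular to them. The BCP markers had it too (3593, 5447 and 4493 FPKM in leukemic replicates 1 to 3), as did the CD3 chains and the defining T cell and NK cell markers. The neutrophil, dendritic cell, and basophil and mast cell sums did not. The 12 macrophage markers (C1qa and C1qc at their head) summed to 11.5 to 19.6 FPKM in preleukemic samples and to 40.6, 217 and 84.7 FPKM in leukemic replicates 1 to 3, the same order of leukemic samples as for the cytotoxic genes. The cytotoxic sum was 0.397 to 0.668 times the macrophage sum in all 7 samples. Of the 9 macrophage markers tested, 5 were called higher and 0 lower (8 and 0 at an unadjusted p under 0.05). Of all 10541 genes tested, 893 were called higher and 660 lower (1738 and 1848 at an unadjusted p under 0.05). The 11 erythroid markers (Hba-a1, which has a nearly identical copy, and Hbb-bt at their head) summed to 1797, 8045 and 4102 FPKM in leukemic samples against 57.1 to 876 in preleukemic samples, and all 10 that were tested were called higher. The 10 neutrophil markers, with S100a8 and S100a9 at their head, summed to 1411 to 1754 FPKM in leukemic and 149 to 865 in preleukemic samples, with 3 called higher. Basophil and mast cell markers (7, of which Mcpt8 had the highest mean, then Prss34) summed to 3.12 to 4.33 FPKM in leukemic and 0.610 to 2.44 in preleukemic samples. The 8 dendritic cell markers overlapped between the groups (57.3 to 80.5 and 38.0 to 70.6 FPKM), and Bst2, which other cells make too, gave most of their sum, before Itgax (1.97 to 3.63 and 0.151 to 0.376 FPKM). Of the 15 BCP markers, 4 were called lower in leukemic samples. These counts depended on single samples. Macrophage calls went from 5 to 1 without any one preleukemic replicate, 3 and 2 without leukemic replicates 2 and 3, and 8 without leukemic replicate 1. Erythroid calls went from 10 to 1 without preleukemic replicate 2, 3 or 4 and to 4 without leukemic replicate 3. Neutrophil calls went from 3 to 7 without preleukemic replicate 1 and to 0 by limma without any other single sample, where 7 to 9 still had an unadjusted p under 0.05. In those fits 2648 to 3883 of all 10541 genes tested had such an unadjusted p. BCP calls went from 4 to 7 without leukemic replicate 1 or 2, and to 2, 1 and 1 without preleukemic replicates 2, 3 and 4. Without leukemic replicate 1 the BCP calls included Cd24a, which was higher in leukemic samples, while the others were lower. The part of these cells in the levels of the cytotoxic genes was not tested.

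**Figure D4:**
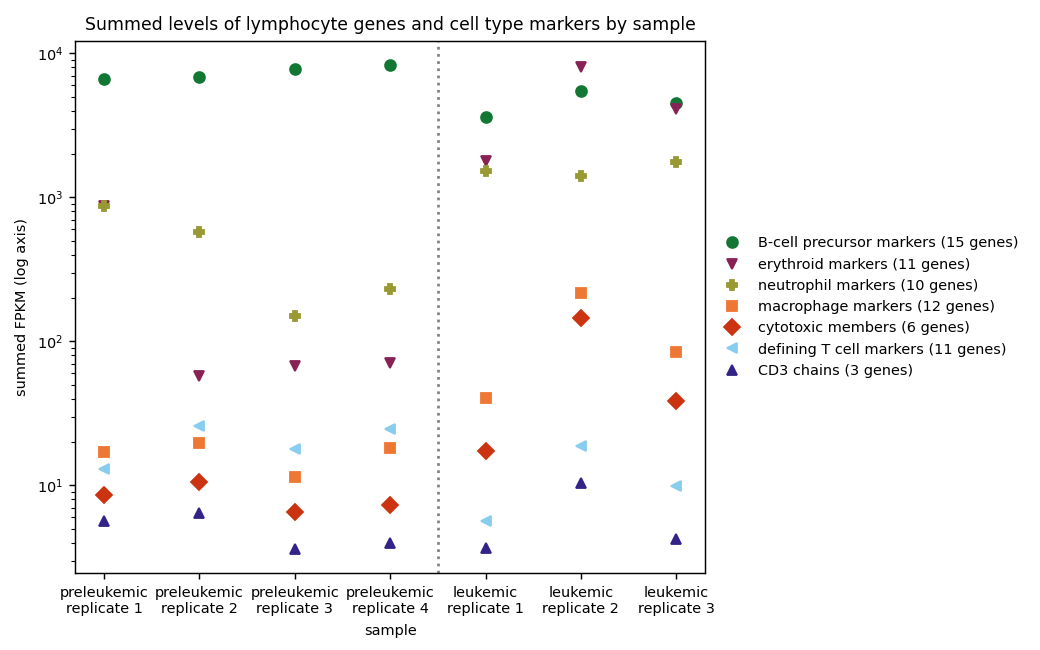
Summed FPKM (log axis) of the 3 CD3 chains, the 6 cytotoxic genes and the markers of other cell types in each sample. The cytotoxic sum, at 6.49 to 10.6 FPKM in preleukemic and 17.4 to 145 in leukemic samples, is 0.397 to 0.668 times the macrophage sum in every sample, while the CD3 sum stays between 3.60 and 10.4 FPKM.

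Defining T cell and NK cell markers that are not among the 10 genes were at low levels. Of the defining T cell markers, 11 of 14 were read and the constant genes of the T cell receptor were not analysed here. The 11 summed to 12.9 to 25.7 FPKM in preleukemic samples and to 5.68, 18.7 and 9.87 FPKM in leukemic replicates 1 to 3, with 1 to 6 of them at 1 FPKM or more per sample. None was at the floor in all samples. Their highest were Ubash3a, an inhibitor of T cell receptor signaling (3.73 ± 3.00 FPKM in leukemic, SD, n = 3, and 10.9 ± 4.96 in preleukemic samples, SD, n = 4), the receptor Cd5 (1.94 ± 1.02 and 3.53 ± 0.842 FPKM), and Cd247, the ζ chain of the receptor complex (1.97 ± 1.32 and 1.18 ± 0.596 FPKM). In each of these the groups overlapped. The 11 defining NK cell markers summed to 7.43 to 9.07 FPKM in preleukemic samples and to 4.37, 22.2 and 8.92 FPKM in leukemic replicates 1 to 3, and 1 of them, Klra8 of a family of closely similar receptor genes, was at the floor in every sample. Ncr1, which encodes the NK cell receptor NKp46, had 0.376, 0.543, 0.402 and 0.233 FPKM in preleukemic replicates 1 to 4 and 0.206, 5.96 and 0.977 FPKM in leukemic replicates 1 to 3. It was thus higher in leukemic replicates 2 and 3 than in all other samples, as were Gzma and Prf1. Il2rb, a receptor chain for interleukins, stood at 3.89 ± 2.68 FPKM against 1.03 ± 0.618 in preleukemic samples (limma adjusted p = 0.0847), whereas Klrb1c had 2.15 ± 1.30 and 5.54 ± 1.18 FPKM (limma adjusted p = 0.0527). Of the 3 defining T cell and 2 defining NK cell markers that could be tested, limma called 0. At an unadjusted p under 0.05, Ubash3a and Klrb1c were lower and Il2rb was higher. Of all 10541 genes tested, 1848 were lower and 1738 higher at that unadjusted p.

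Of a wider list of 32 T cell genes, 28 were read and 15 could be tested. By limma, 0 were called higher and 1 was called lower (1 and 4 at an unadjusted p under 0.05). Of all 10541 genes tested, 1738 were higher and 1848 lower at that unadjusted p. The median log2 difference was -0.62 against -0.02 over all genes tested. Over the 28 genes with no limit on summed FPKM, the median was -0.13 against 0.0076 over all 16676 genes. At an unadjusted p under 0.05 that fit had 3 of the 28 higher and 4 lower, against 2801 and 2168 of all genes. The gene called lower was Thy1, a surface protein of mouse T cells and of other early blood cells. It had 9.10, 23.4, 21.4 and 26.6 FPKM in preleukemic replicates 1 to 4 and 3.31, 3.69 and 3.14 FPKM in leukemic replicates 1 to 3, a log2 difference of -2.17 (standard error 0.33, limma adjusted p = 0.0129). Every leukemic sample was below every preleukemic sample. Without preleukemic replicate 4, Thy1 did not pass (limma adjusted p = 0.0515). Without the limit on summed FPKM, Ctla4 and Foxp3, both genes of regulatory T cells, were called higher as well (limma adjusted p = 0.0172 and 0.0489). Ctla4 had 0.417 ± 0.0732 FPKM in leukemic (SD, n = 3) and 0.0737 ± 0.0642 in preleukemic samples (SD, n = 4), and Foxp3 had 0.316 ± 0.0815 and 0.139 ± 0.0409 FPKM, all of them below every CD3 chain.

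The most abundant genes of this T cell list are not particular to T cells. Lef1, a transcription factor of early B and T cells, had 97.1 ± 41.3 FPKM in leukemic (SD, n = 3) and 167 ± 11.9 in preleukemic samples (SD, n = 4). Next came the adaptor gene Sit1 (36.3 ± 23.8 and 60.3 ± 15.4 FPKM), the kinase gene Zap70 (35.5 ± 21.6 and 44.2 ± 21.2 FPKM) and the adaptor gene Lat (18.0 ± 11.6 and 26.6 ± 5.29 FPKM). Each exceeded every CD3 chain in every sample, and none of these 4 genes passed (limma adjusted p 0.0651 to 0.620).

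The wider list of cytotoxic and NK cell genes held 34 genes, of which 11 could be tested. Of these, limma called 2 higher and 0 lower (4 and 2 at an unadjusted p under 0.05), with a median log2 difference of 0.03. Of all 10541 genes tested, 1738 were higher and 1848 lower at that unadjusted p. Over 31 genes with no limit on summed FPKM, the median was 0.36 against 0.0076 over all 16676 genes. At an unadjusted p under 0.05 that fit had 12 of the 31 higher and 2 lower, against 2801 and 2168 of all genes. Without the limit on summed FPKM the chemokine gene Ccl4 was called higher too (1.33 ± 0.656 FPKM in leukemic and 0.126 ± 0.149 in preleukemic samples, limma adjusted p = 0.0282). Tyrobp, the DAP12 adaptor of NK cells and myeloid cells, had 9.22, 5.25, 3.46 and 3.04 FPKM in preleukemic replicates 1 to 4 and 20.9, 44.8 and 39.7 FPKM in leukemic replicates 1 to 3, with a log2 difference of 2.56 (standard error 0.38, limma adjusted p = 0.0123). Ctsw, a cathepsin of cytotoxic cells, had 0.656, 0.930, 0.494 and 0.570 FPKM in preleukemic and 1.82, 3.30 and 2.86 FPKM in leukemic samples, with a log2 difference of 1.12 (standard error 0.23, limma adjusted p = 0.0226). In both genes all leukemic samples were above all preleukemic ones, leukemic replicate 1 included. Neither passed without preleukemic replicate 4 (limma adjusted p = 0.0510 for Tyrobp and 0.0730 for Ctsw), and Ctsw also missed without preleukemic replicate 3 (0.0670).

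The other 3 of the 4 most abundant genes of this list did not pass. Srgn, the proteoglycan that packs granule contents in many blood cells, had 176 ± 111 FPKM in leukemic (SD, n = 3) and 291 ± 47.8 in preleukemic samples (SD, n = 4), with overlap between the groups (limma adjusted p = 0.221). Slamf7, a receptor of NK, plasma and myeloid cells, had 43.4 ± 19.3 and 93.4 ± 15.4 FPKM and did not overlap, with a log2 difference of -1.19 (limma adjusted p = 0.0525). The serpin gene Serpinb6b had 6.61 ± 3.37 and 5.89 ± 1.13 FPKM (limma adjusted p = 0.950). Cd160, named after its values were seen, had 20.7 FPKM in leukemic replicate 3 and at most 2.17 in the other 6 samples.

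The genes outside the 10 whose pattern over the 7 samples came closest to the mean of the CD3 chains were Sgk3, Ms4a4b, Cd247, Rffl and Sfi1. Likeness was measured as the root mean square difference between scaled profiles, 0.313 to 0.482 for these genes, among 2802 genes with a range of at least 1 on the log2 scale. Ms4a4b, a membrane protein of T cells, and Cd247 each peaked in leukemic replicate 2, at 9.61 and 3.45 FPKM. Closest to the mean of the 6 cytotoxic genes were Mrc1 (0.0437), Irgm2, C1qa, C1qc and Fam220a (0.155). Mrc1, the macrophage mannose receptor, had 1.33, 1.54, 1.13 and 1.30 FPKM in preleukemic replicates 1 to 4 and 1.73, 5.93 and 3.21 FPKM in leukemic replicates 1 to 3. C1qa and C1qc, chains of complement C1q made by macrophages, were at 43.1 and 40.9 FPKM in leukemic replicate 2. Over 7 samples, such likeness is a description of these libraries.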

How the data were processed

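RNA of sorted BCP cells was isolated with the AllPrep kit and made into stranded mRNA libraries. The authors deposited FPKM values for 24341 genes in 7 samples, with a floor of 0.01. The submitters' processing notes name STAR 2.5.0b, Cufflinks 2.2.1, bedtools 2.17.0, Bowtie, DESeq2 and mm10, with no role or order. No further scaling was applied here, and a fold change on the log2(FPKM + 1) scale understates the change of low genes. The 10 genes and all lists were chosen with earlier results of these data known.

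The groups were set against each other by limma 3.58.1 (R 4.3.3, lmFit and trended eBayes, no covariates) on log2(FPKM + 1). The fit took in the 10541 genes with an FPKM total of 10 or more, with Benjamini-Hochberg adjustment and a threshold of 0.05. The samples were treated as coming from separate mice. Described with values were the 10 genes, the 4 highest and every called gene of the T cell list and of the cytotoxic and NK cell list, the 3 highest defining T cell and NK cell markers, the 2 highest markers of other cells and the 5 genes most alike in pattern. Tested on simulated data for these 10541 genes, the fit recovered 142 of 200 genes changed by 1 on the log2 scale, with 6 false calls, and 187 changed by 2, with 11 false calls. With no gene changed it made 0 calls. The simulation gave each gene the same spread in both groups and no floor, whereas most of the 10 genes varied more among leukemic samples. These counts therefore do not describe the fit on genes of unequal spread.

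Depth was read from the steps between low values of 656 genes that have only 1 annotated transcript. At that depth 66 of the 70 values of the 10 genes were within 0.1 of a whole number of fragments, which chance gives for 20%. The fragments were used as a description only. Alternatives were a pseudocount of 0.1, no limit or a limit of 70 on summed FPKM, quantile normalization, upper quartile scaling, eBayes without the trend, each sample left out, a replicate block and, for single genes, an exact permutation test. Starts of genes in the table count from 0 and were raised by 1. A further 27 names in the table had been turned into dates and were kept as listed.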

Additional observations from a re-analysis of the deposited data

Results flagged for a closer look

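In 23 groups of values from the 4 preleukemic samples, 2 held a sample far from the rest by Dixon's test, where chance gives about 1 in 20. The summed erythroid markers of preleukemic replicate 1 were at 876 FPKM, against 57.1, 67.9 and 70.3 FPKM in preleukemic replicates 2 to 4. The 10 T and cytotoxic lymphocyte genes of that sample summed to 20.0 FPKM, within the 18.0 to 28.6 FPKM of the preleukemic group. The summed dendritic cell markers of preleukemic replicate 2 were at 70.6 FPKM, against 38.0 to 43.5 FPKM in the other 3 samples, and that sample also had the highest preleukemic sums of CD3 chains (6.40 FPKM) and of the 6 cytotoxic genes (10.6 FPKM). None of the 10 genes itself stood out in this way among the preleukemic samples, and groups of 3 were not examined.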

How the results depend on the processing

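Of the 10 genes, 1 was called. The number was 0 to 4 with each sample left out in turn. It was 4 without leukemic replicate 1 (Ccl5, Cd2, Gzma and Nkg7) and 0 without leukemic replicate 3 or any preleukemic replicate, where Ccl5 and Nkg7 still had an unadjusted p under 0.05 by limma. In those fits 2648 to 3883 of all 10541 genes tested had such an unadjusted p. Without the limit on summed FPKM the number called was 1, with Gzmb in place of Ccl5. The T cell list, with 1 call, had 3 without the limit on summed FPKM, 2 with quantile normalization and 2 with eBayes without the trend. It had 0 to 5 with a sample left out (5 without leukemic replicate 2, 2 without leukemic replicate 3 and 0 without preleukemic replicate 4). All of these T cell calls were lower, except Ctla4 and Foxp3 without the limit and Cd4 with eBayes without the trend. The cytotoxic and NK cell list, with 2 calls, had 1 with the limit of 70, 4 with quantile normalization and 4 with upper quartile scaling. It had 0 to 4 with a sample left out (4 without leukemic replicate 1 or 3, 1 without preleukemic replicate 3 and 0 without preleukemic replicate 4). Wherever this list had 4 calls, Tyrobp and Ctsw were higher and Slamf7 was lower. The remaining call was Klrb1c, which was lower, or without leukemic replicate 1 Il2rb, which was higher. Over all genes, 1553 were called, 893 higher and 660 lower, against 754 higher and 907 lower with quantile normalization, 951 with the limit of 70 and 149 to 1620 with a sample left out (932, 443, 271 and 149 without preleukemic replicates 1 to 4). The log2 difference turned sign for Cd2 without leukemic replicate 3 (range with a sample left out -0.15 to 1.87), for Cd3d without leukemic replicate 1 or preleukemic replicate 2 (0.0044, range -0.32 to 0.016) and for Cd3g without leukemic replicate 2 (range -0.21 to 0.39). Ccl5 passed in 7 of 14 alternatives (limma adjusted p 0.0136 to 0.147). Beyond the samples and genes left out by construction, the cause of these changes was not tested.

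The groups share replicate numbers 1 to 3, but same-numbered samples did not deviate together (correlations of 0.029, 0.050 and -0.092). Whether they share more than a number cannot be told from these correlations. With a replicate block, which leaves out preleukemic replicate 4, 0 of the 10 genes, 0 of the T cell list, 0 of the cytotoxic and NK cell list and 0 of all genes were called by limma. At an unadjusted p under 0.05 these counts were 2, 4, 5 and 2416. Low counts limit Gzmb and Klrd1, which rest on 1 to 6 fragments per preleukemic sample.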
